A study of Bos taurus with 12 samples.

Results

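SPP1, the gene of osteopontin, was followed through the milk fat RNA of 6 Holstein cows in early lactation, from which both an untreated sample and one under postruminal lysine were taken. It is 1 row of the 24616 in the deposited count table, found by its cattle Ensembl identifier ENSBTAG00000005260, and it was read in 12 libraries, 1 control and 1 lysine library per cow. RNA came from the fat layer of centrifuged milk, which carries cytoplasm of mammary secretory cells and can carry whole cells. The label of the lysine group names 63 days of treatment, while titles and descriptions give only the codes 0 and 63, so whether 63 is a duration or an amount was not settled. Each description further holds a letter B with a number that stays the same in a cow (B1 or B2, 3 cows each) and a letter P with a number from 1 to 4 that differs between its libraries. What B and P stand for is not explained in the labels. The design asks whether postruminal lysine affects the mammary transcriptome.

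Osteopontin is a secreted, acidic, heavily phosphorylated glycoprotein of the SIBLING family, which also includes the bone proteins encoded by IBSP and MEPE. It binds calcium, and it binds cells through integrins, which recognise its RGD motif, and through CD44. Mammary epithelial cells secrete it into milk, and macrophages, activated T cells and bone cells make it too. In RefSeq's gene table for ARS-UCD2.0, the named protein-coding genes beside SPP1 are PKD2, a calcium channel gene, on one side and MEPE on the other. ABCG2, the milk riboflavin and urate transporter gene, follows PKD2, and IBSP follows MEPE.

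SPP1 was among the most abundant transcripts of milk fat in all 12 libraries. It took 0.41 ± 0.36% of all counts (mean ± SD, n = 12), which made it the tenth gene of all by mean share. Within single libraries its rank ran from 8 to 23 (median 10.5). Library totals ran from 5.45 to 56.6 M counts (M, the metric prefix mega). SPP1 had from 13301 counts, in the shallowest library, to 525682, in the lysine library of cow 4345. Counting error was therefore small, if reads are taken as independent. The 95% Wilson interval was 0.240% to 0.248% in the shallowest library, the lysine library of cow 4319. Such intervals cover counting error only, and they take each read as independent. The labels name no molecular identifiers that would separate copies of a molecule from independent ones, so this was not tested.

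The share of counts was uneven across animals. In the control libraries SPP1 took from 0.160% (cow 4408) to 0.798% (cow 4345) of all counts, with a median of 0.318%. In the lysine libraries it took from 0.181% (cow 4394) to 1.39% (cow 4345), with a median of 0.240%. The control and lysine ranges overlapped, and cow 4345 was the highest in both; the lysine libraries of the other 5 cows lay within the control range. Without cow 4345 the shares were 0.287 ± 0.115% in control and 0.259 ± 0.104% in lysine libraries (mean ± SD, n = 5 each), against 0.372 ± 0.232% and 0.447 ± 0.469% with that cow (n = 6 each).

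**Figure D1:**
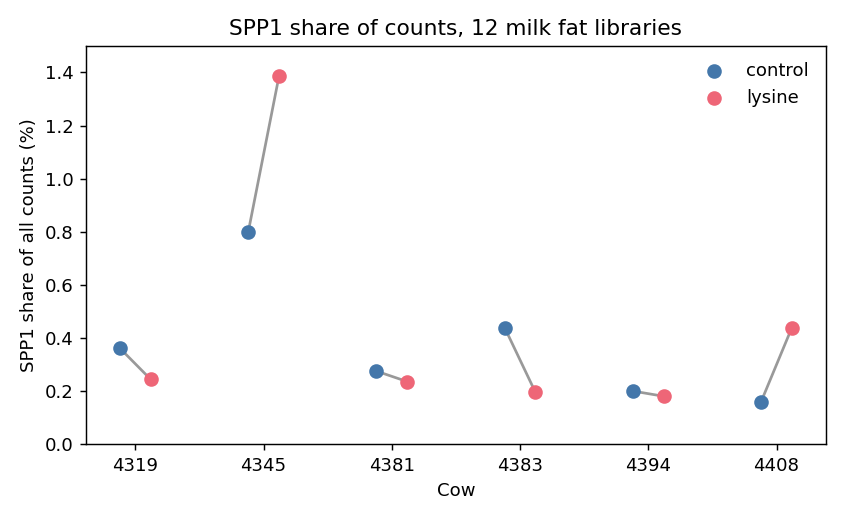
SPP1 share of all counts (%, linear axis from 0) in the control (blue) and lysine (red) library of each cow, with a grey line joining the 2 libraries of a cow. The line goes up in cows 4345 and 4408 and down in the other 4; the lysine library of cow 4345 is the highest at 1.39%.

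The neighbours of SPP1 in the order of abundance were compared with it. The gene ranked eighth by mean share held 0.995 ± 0.246% of counts (mean ± SD, n = 12) and exceeded SPP1 in 10 of 12 libraries. The ninth held 0.843 ± 0.625% and exceeded it in 9. The eleventh, at 0.396 ± 0.166%, and the twelfth, at 0.374 ± 0.171%, exceeded SPP1 in 6 and 5 libraries. Differences between SPP1 and these genes were not tested, and the order is given as a description. These shares are not divided by transcript length, so they order reads and not molecules.

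The first comparison asked whether SPP1 differed between the lysine and the control library of a cow, as a share of all counts. SPP1 went from 0.798% to 1.39% in cow 4345 and from 0.160% to 0.439% in cow 4408, a ratio of 1.74 and 2.74. It went from 0.439% to 0.196% in cow 4383 and from 0.362% to 0.244% in cow 4319. The shares of the other 2 cows were close to each other, 0.275% and 0.236% in cow 4381 and 0.200% and 0.181% in cow 4394. The share was thus larger with lysine in 2 of 6 cows and smaller in 4. The mean difference, lysine minus control, was 0.074 ± 0.305 percentage points (SD, n = 6 cows) and did not pass the test (exact two-sided sign-flip permutation p = 0.688, adjusted p = 0.917 over 4 single-value tests; 6 cows cannot give less than 0.0313). Without cow 4345 it was -0.028 percentage points.

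A share of all counts depends on what the few dominant transcripts take. The 9 genes above SPP1 in the order held between 59.0% and 86.6% of a library, and the second most abundant gene alone ran from 3.65% to 45.8%. In cow 4383 the 9 genes went from 65.8% of the control to 86.6% of the lysine library. In that cow the SPP1 share of the remaining counts was 1.29% in control and 1.46% with lysine, the opposite direction to its share of all counts. A normalised level was therefore used beside the share: CPM (counts scaled to a common total) of a library total corrected by edgeR's trimmed mean of M values (TMM), which sets the bulk of genes level between libraries. Of the factors in this scaling, the lowest was 0.444, in the lysine library of cow 4383, and the highest was 1.41, in the control library of cow 4394 and the lysine library of cow 4345.

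On the normalised scale SPP1 measured 3313 ± 1784 CPM in control and 4348 ± 2944 CPM in lysine libraries (mean ± SD, n = 6 each). The control libraries ran from 1420 (cow 4394) to 6180 CPM (cow 4345), with a median of 3319. The lysine libraries ran from 1539 (cow 4394) to 9851 CPM (cow 4345), with a median of 4096. The ranges of the groups overlapped, as they did for the share.

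Within cows the normalised level was higher with lysine in 5 of 6. Cow 4408 had the largest ratio, 2.78, from 1494 to 4147 CPM, and cow 4345 went from 6180 to 9851 CPM, a ratio of 1.59. Cows 4381, 4383 and 4394 went from 3089 to 4044, from 3549 to 4406 and from 1420 to 1539 CPM. Cow 4319 went the other way, from 4145 to 2104 CPM, and its lysine library was the shallowest of the 12. Cows 4381, 4383 and 4394 are the 3 whose direction depended on the scale: their share of all counts was smaller with lysine and their normalised level larger.

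In the model fitted across all genes, the SPP1 log2 fold change, lysine against control, was 0.34 ± 0.29 (SE, 6 cows), with a 95% interval of -0.29 to 0.96. This is 1.26-fold, with an interval from 0.819-fold to 1.94-fold. It did not pass the threshold (quasi-likelihood test of edgeR, blocked by cow, unadjusted p = 0.264, Benjamini-Hochberg adjusted p = 1). No gene did: 0 of 11323 tested genes (0%) were called by edgeR, and 286 (2.53%) had an unadjusted p under 0.05. DESeq2 and limma voom also called 0; their unadjusted p was under 0.05 for 543 and 584 genes. The median log2 fold change of all tested genes was 0.04. With library totals as the only scaling that median was -0.26 and the SPP1 log2 fold change was 0.01, so SPP1 stood 0.30 above the median of all genes with TMM and 0.28 above it with totals.

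**Figure D2:**
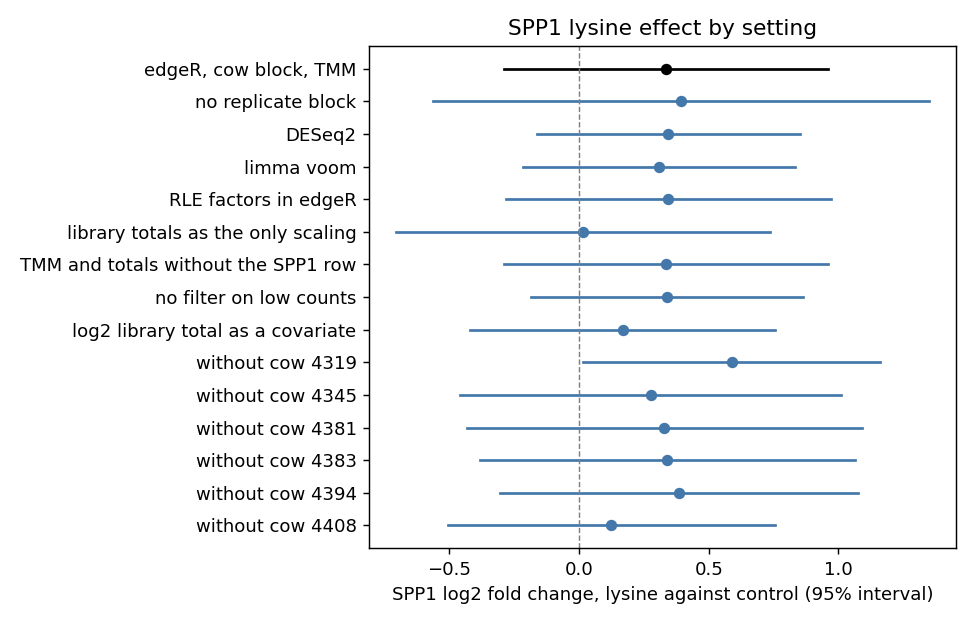
SPP1 log2 fold change, lysine against control, with its 95% interval, for the edgeR model with cow block and TMM (black) and 14 alternatives (blue). All 15 estimates lie above 0, from 0.01 to 0.59, and the interval reaches below 0 in each except the one without cow 4319.

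Leaving out single cows also moved this estimate. Without cow 4319 the log2 fold change was 0.59 (95% interval 0.02 to 1.16, unadjusted p = 0.0449 and adjusted p = 1.0 by edgeR). In the fit without cow 4319, 276 of 11288 tested genes had an unadjusted p under 0.05 by edgeR. Without cow 4408 the SPP1 log2 fold change was 0.12 (-0.50 to 0.75). These were the highest and the lowest estimate with a single cow left out. SPP1 passed the adjusted threshold under none of the 14 alternatives (adjusted p 0.871 to 1).

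A ratio to other abundant transcripts needs no library scaling. Since those transcripts held most of each library, the ratio moved much as the share of all counts did. Against the summed counts of the 10 most abundant other genes, SPP1 counts were 0.549 ± 0.360% in control and 0.689 ± 0.821% in lysine libraries (mean ± SD, n = 6 each). The within-cow log2 change of this ratio averaged -0.03 ± 1.06 (SD, n = 6 cows) and was positive in cows 4345 and 4408 alone (exact two-sided sign-flip permutation p = 0.969, adjusted p = 0.969). At its extremes it was -1.55 in cow 4383 and 1.41 in cow 4408. The mean of this ratio changed sign without cow 4319, 4381, 4383 or 4394, where it lay between 0.01 and 0.28.

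**Figure D3:**
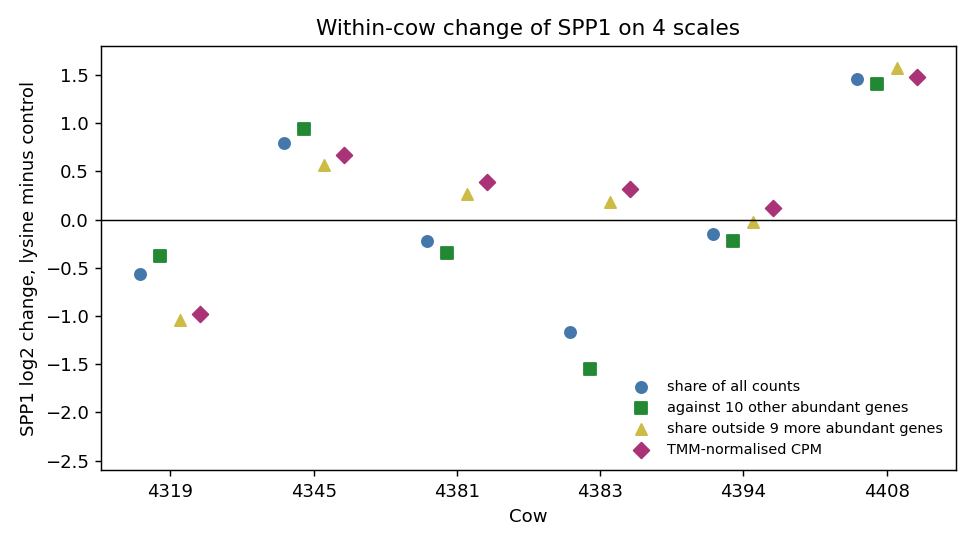
Within-cow log2 change of SPP1, lysine minus control, on 4 scales: share of all counts (circles), ratio to the 10 most abundant other genes (squares), share of the counts outside the 9 more abundant genes (triangles) and TMM-normalised CPM (diamonds). Cows 4345 and 4408 lie above 0 and cow 4319 below 0 on all 4 scales, while cows 4381, 4383 and 4394 have values on both sides.

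Depth was set beside the change. In every cow except 4319 the lysine library was the deeper one, and cow 4319 alone had a lower normalised level with lysine. The lysine library held 0.175 times the counts of the control in cow 4319, 4.48 times in cow 4381 and 3.88 times in cow 4383; in cows 4345, 4394 and 4408 the factor was 1.51, 1.34 and 1.44. Over the 6 cows the log2 change of the SPP1 share did not follow that of the library total (Pearson r was -0.03 with an exact permutation p of 0.969, and Spearman rho was -0.14 with an exact permutation p of 0.803; adjusting for the 3 relations computed left both p values as they were). For the normalised level r was 0.61 (exact permutation p = 0.185, adjusted p = 0.277) and rho was 0.49 (exact permutation p = 0.356, adjusted p = 0.533). The third relation, of the TMM factor itself with the total, gave r = -0.77 (exact permutation p = 0.0875, adjusted p = 0.263) and rho = -0.71 (exact permutation p = 0.136, adjusted p = 0.408). Without cows 4319 and 4381, which were farthest from the median change in total, r was -0.78 for the share, -0.32 for the normalised level and -0.95 for the factor (n = 4). The positive r of the normalised level was thus not kept. For that level the 2 cows were left out only together, so what each contributed was not tested. With a covariate for the log2 library total in the model, the SPP1 log2 fold change was 0.17, against 0.34 without it.

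The second comparison was between animals. Cow 4345 had the highest SPP1 level, a geometric mean of 7803 normalised CPM over its 2 libraries. It was followed by cow 4383 at 3954, cow 4381 at 3535, cow 4319 at 2953 and cow 4408 at 2489. Cow 4394 was the lowest at 1478 CPM. Both libraries of cow 4345 lay above both of cow 4383, with a gap of 0.98 between their means on the log2 scale. For the other 4 neighbouring pairs in this order the ranges of the cows overlapped. The 2 libraries of a cow differ in treatment and P code and are not replicates. Overlap of their ranges therefore cannot show whether those neighbours differed. The difference between the 2 libraries of a cow was widest in cow 4408 (1.47 on the log2 scale) and narrowest in cow 4394 (0.12).

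**Figure D4:**
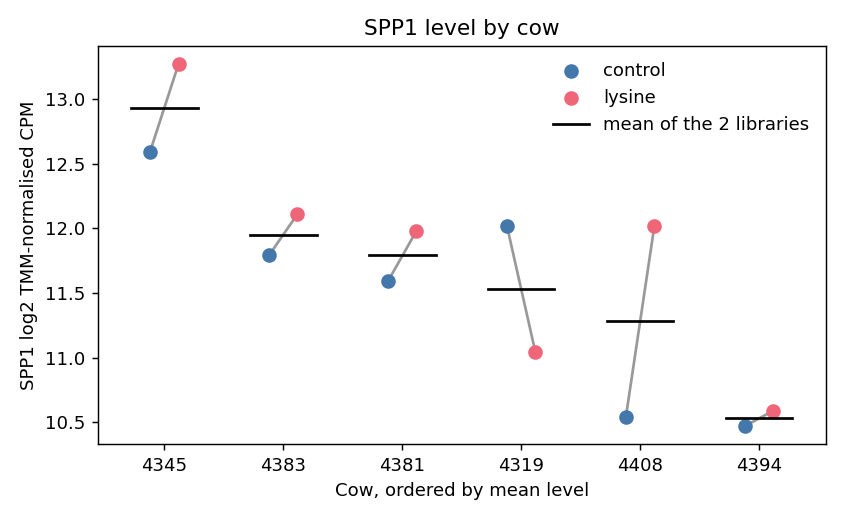
SPP1 log2 TMM-normalised CPM in the control (blue) and lysine (red) library of each cow, with a black bar at the mean, cows ordered by that mean. Both libraries of cow 4345 lie above all others, and both of cow 4394 lie near the lower end with the control of cow 4408.

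The cows' coefficients spanned 2.41 on the log2 scale. The F test of the cow terms gave SPP1 an unadjusted p of 0.0082 and an adjusted p of 0.143 by edgeR, so the difference between cows did not pass the threshold. The same test called 161 of 11323 genes (1.42%), and 650 genes (5.74%) had an unadjusted p as small as that of SPP1 or smaller. SPP1 was called by DESeq2 (adjusted p = 0.00027), by limma voom (adjusted p = 0.0384), in edgeR with library totals as the only scaling (adjusted p = 0.0443) and in edgeR without a filter on low counts (adjusted p = 0.0049). These settings called more genes in all: 13.4% with DESeq2, 5.02% with limma voom, 3.5% with library totals and 5.01% without a filter. Without cow 4345 the span was 1.47 and without cow 4394 it was 1.49, with adjusted p values of 0.812 and 0.336 by edgeR. Of the variance of the log2 level over the 12 libraries, cow took 76.6%, treatment 3.99% and the remainder 19.4%; cow has 5 of the 11 degrees of freedom. Over the 6 cows the control and the lysine level correlated with r = 0.60 and rho = 0.60, given as a description.

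The spread of SPP1 was in the upper part of that of the abundant transcripts, given here as a description. Among the 50 most abundant genes that were tested, the SD of its log2 level over 12 libraries, 0.86, was the ninth largest, against a median of 0.55. The SD of its cow means, 0.79, was the seventh largest (median 0.47). The SD of its within-cow change, 0.80, ranked 18 of 50 (median 0.65). Its highest share was 8.64 times its lowest, against a median of 4.88 times for the 50 genes. The most abundant gene of all varied 1.57-fold in share and the second most abundant 12.5-fold. In the F test between cows 1 of the 50 genes was called and 16 had an unadjusted p under 0.05, SPP1 among the 16; over all 11323 tested genes 1756 (15.5%) did.

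**Figure D5:**
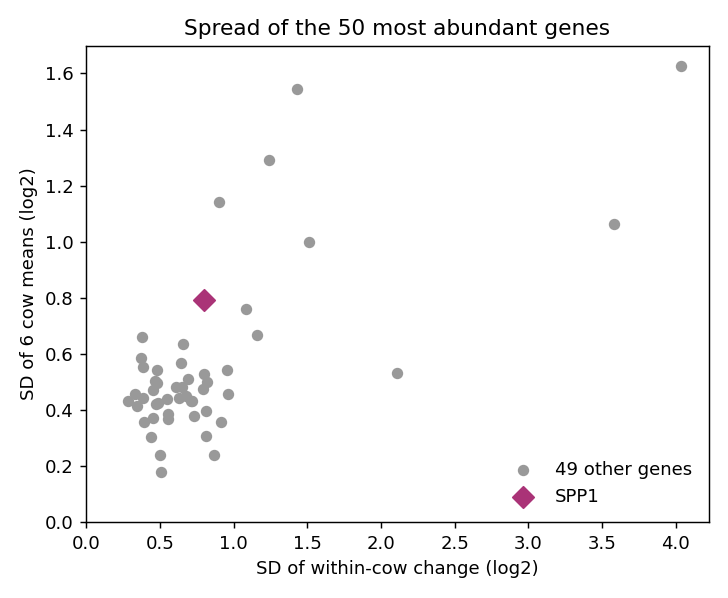
SD of the within-cow log2 change (x axis) against the SD of the 6 cow means (y axis, log2) for the 50 most abundant tested genes. SPP1 (diamond) lies at 0.80 and 0.79, above most of the other genes on the y axis.

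The lysine change of SPP1 was set against the B code. In the 3 B1 cows the within-cow log2 change was -0.18 ± 0.70 and in the 3 B2 cows 0.84 ± 0.56 (mean ± SD). All 3 B2 cows and 2 of the 3 B1 cows had a higher normalised level with lysine. The fitted difference of the lysine effect, B2 minus B1, was 1.02 ± 0.49 (SE) on the log2 scale, with a 95% interval of -0.05 to 2.10. It did not pass the threshold (edgeR interaction test, unadjusted p = 0.0605, adjusted p = 0.701). Of 11323 genes 0 (0%) were called by edgeR in this comparison and 784 (6.92%) had an unadjusted p under 0.05, while DESeq2 called 39 and limma voom 0, and their unadjusted p was under 0.05 for 1218 and 1408 genes. DESeq2 and limma voom gave SPP1 adjusted p values of 0.261 and 0.320. Their 95% intervals lay above 0, at 0.17 to 1.86 and 0.19 to 1.90. So did the edgeR intervals without a filter on low counts (0.04 to 1.93) and without cow 4383 (0.17 to 2.38). Many other genes did the same in those 2 fits. Without a filter 1048 of 16533 genes had an unadjusted p under 0.05 in the edgeR interaction test, and 30 were called. Without cow 4383 the same test gave 1124 of 11445 genes, and 0 were called. It called 1 gene without cow 4394. In the other alternatives run the interval reached below 0, and SPP1 passed the adjusted threshold in none. The difference was 0.63 without cow 4319.

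The level itself had a geometric mean of 2584 normalised CPM in B1 cows and 4095 CPM in B2 cows, with SDs of the cow means of 0.73 and 0.84 on the log2 scale (n = 3 each). The difference of 0.66 on the log2 scale was within the spread (exact two-sided permutation p = 0.5, adjusted p = 0.917, where 3 against 3 cannot give less than 0.1), and without cow 4345 it was 0.20.

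By P code, the P1 libraries, which are the controls of cows 4394 and 4408, had 1420 and 1494 CPM, the lowest normalised levels of the 12. The P2 libraries, both lysine, had 2104 and 9851 CPM. The P3 libraries had 4145, 6180, 4044 and 4406 CPM and the P4 libraries 3089, 3549, 1539 and 4147 CPM. The code thus did not order the levels, and at P1 and P2 it cannot be told apart from treatment. Within cows the library with the higher P code was higher in 3 of 6, by 0.20 ± 0.85 on the log2 scale on average (SD, n = 6; exact two-sided sign-flip permutation p = 0.594, adjusted p = 0.917). Without cow 4408 the mean was -0.06.

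Other genes were ranked by how closely their log2 level followed SPP1 over the 12 libraries, among 7357 genes at a mean of 5 normalised CPM or more. The identifiers of these genes were not matched to names here. The closest was ENSBTAG00000012904 (r = 0.96), which measured 12.3 to 58.4 normalised CPM. It was followed by ENSBTAG00000011640 (r = 0.95), at 8.36 to 46.0 CPM. Both had their highest level in the lysine library of cow 4345, as SPP1 did, and without that cow r was 0.95 and 0.93. At the other end, ENSBTAG00000010157 (r = -0.95) and ENSBTAG00000018631 (r = -0.94) had their lowest levels there, 15.8 and 31.0 CPM.

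The likeness of the first 2 genes was also computed for cow means and for within-cow changes, which come from the same 12 libraries. Over the 6 cow means r with SPP1 was 0.96 for each, and over the 6 within-cow changes it was 0.98 and 0.99. In all 314 genes had r over 0.8 and 213 had r under -0.8, against a median of -0.02. These libraries share cows, depth and scaling, the genes were picked for this likeness, and r is given as a description. Of the 9 genes above SPP1 in abundance, the second (r = 0.52) and the ninth (r = 0.32) had a positive r with it, and the other 7 lay between -0.48 and -0.0019; the eleventh gene had r = -0.79.

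In bulk RNA of this kind, fewer cells of a type and less RNA per cell cannot be told apart, and this applies to each level given. Markers of macrophages, T cells and epithelium, the integrin and CD44 receptor genes and the other milk protein genes were not analysed here, since their identifiers were not matched to names. How far such cells contributed to the SPP1 counts was not tested.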

How the data were processed

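The authors deposited whole-number read counts per gene, not normalized, judging by the header and by values that are whole with unequal totals, with 1 column per library; all 12 columns matched 1 sample's description. Not given in the sources used here are the aligner, counter, strand setting, genome build and annotation. None of the 24616 identifiers matched a symbol in the table of 37063 RefSeq genes (0 matched), so the lists of receptors, milk proteins and cell type markers could not be tested, and no sequence or position is printed. SPP1 was found by its identifier. SPP1 and the lists were chosen with earlier results of these data known.

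Counts were tested with edgeR 4.0.16 in R 4.3.3 after filterByExpr (minimum count 10), which kept 11323 genes with 99.9% of all counts, with TMM scaling, robust quasi-likelihood fits, cow as a block and Benjamini-Hochberg adjustment at 0.05. The procedure was also run on counts simulated from its own fit, with set changes larger than the estimate for SPP1. That run cannot tell whether a change as small as that of SPP1 would be found. The libraries of a cow come from 1 animal; their deviations from the group means correlated at -0.02 to 0.66 (median 0.19), against a median of -0.03 between cows. In edgeR fits the standard error was derived from F (fold change divided by its root, on the log2 scale). DESeq2 gave its own, and for limma voom it was the log2 fold change divided by t. For correlations, log2 CPM had a prior count of 2. Single values were tested by exact permutation over cows (SciPy 1.17.1). Genes like SPP1 were named by rule: the highest and lowest Pearson r over 12 libraries, at most 2 identifiers from each end. DESeq2 1.42.0, limma 3.58.1, other scalings, no filter, a depth covariate, no block and leaving out each cow were tried as alternatives.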

Additional observations from a re-analysis of the deposited data

Results flagged for a closer look

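The lysine library of cow 4345 was farther from the other 5 lysine libraries than Dixon's 95% limit allows. Of 8 groups of 6 values examined, chance alone would put about 1 in 20 past that limit. The excess holds on the linear scale, on which the mean share difference was tested. There the gap to the next library was 0.785 of the range for the share and 0.655 for the level. On the log2 scale, used to test the normalised level, it was 0.56 for the share and 0.43 for the level. Both log2 values were under the limit of 0.625. In the lysine library of cow 4345 the SPP1 share of counts was 1.39%, against 0.439% in the next lysine library, that of cow 4408. Its SPP1 level was 9851 normalised CPM, against 4406 CPM in the next, that of cow 4383. The control library of the same cow was the highest control on both measures, at 0.798% and 6180 CPM. Without cow 4345 the SPP1 log2 fold change was 0.28.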

How the results depend on the processing

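The SPP1 log2 fold change for lysine stayed above 0 in all 14 alternatives (0.01 to 0.59) and passed the adjusted threshold in none; with no replicate block it was 0.39, and blocking changed no call for lysine. Leaving out a cow moved it over 0.12 to 0.59. The count of genes called for lysine was 0 except without a filter on low counts (1 gene). The difference of SPP1 between cows, not past the threshold in edgeR with TMM, passed it with DESeq2 (span 2.39), limma voom (2.39), library totals as the only scaling (2.52) and no filter (2.37). The genes called between cows numbered 161, but 1518 with DESeq2, 568 with limma voom, 829 with no filter, 396 with library totals, 18 with the depth covariate and 9 to 429 with a cow left out; the cause was not tested. With single cows removed, the mean share difference ran from -0.028 to 0.138 percentage points, the log2 ratio to other abundant genes from -0.31 to 0.28, the P code difference from -0.056 to 0.37 and the r of share and total from -0.70 to 0.32, none past the threshold; with the normalised level in place of the share that r was 0.61. The difference between B codes kept its sign in all alternatives run (level 0.20 to 1.02, lysine effect 0.63 to 1.31). The share of the counts outside the 9 more abundant genes, added after seeing the data, gave a mean difference of 0.28 percentage points. With 5 cows the exact sign-flip p cannot fall below 0.0625. SPP1 was deep in all 12 libraries, so counting error, with reads taken as independent, was small beside the spread of its within-cow change. The sources of that spread were not tested.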
